A study of Homo sapiens with 12 samples.

Results

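The genes described here are 35 factors of ribosome biogenesis: RNA polymerase I subunits and its factor UBTF, box C/D and H/ACA small nucleolar ribonucleoprotein (snoRNP) proteins, and nucleolar factors that process the 40S and 60S subunits. They were chosen by name, as the entries whose symbol matched a list of nucleolar processing factors and RNA polymerase I genes. The list was made with earlier results of these data known. All 35 members were among the 55773 entries of a gene count table, and all 35 passed the filter on low counts, which left 15691 genes. The table came from poly(A) RNA sequencing of RBE, an established human cholangiocarcinoma (bile duct cancer) line, and every group was this 1 line. The 4 groups of 3 libraries were AG-120/Nutlin (22 days of 5 µM AG-120, then 72 hours of 5 µM Nutlin), AG-120/DMSO (22 days of 5 µM AG-120, no Nutlin), DMSO/Nutlin (22 days of DMSO, then 72 hours of 5 µM Nutlin) and DMSO/DMSO (22 days of DMSO, no Nutlin). The sample titles give DMSO as the second treatment where no Nutlin was added. AG-120 (ivosidenib) inhibits mutant IDH1, which makes 2-hydroxyglutarate (2-HG), and Nutlin blocks MDM2, the ubiquitin ligase that restrains p53. Per its title, the study concerned how mutant IDH bears on p53. Neither 2-HG nor rRNA synthesis was measured in these counts.

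Ribosomes are built in the nucleolus, where RNA polymerase I transcribes a long precursor that is modified by snoRNPs, cleaved, and assembled with ribosomal proteins into the small (40S) and large (60S) subunits. The factors that do this are known to be made in step with cell growth, and many are known targets of the transcription factor MYC. The nucleolus is also tied to p53, since ribosomal proteins released when assembly fails are known to bind MDM2.

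The libraries held 16840161 to 27499433 counts (median 19221201). Levels are given as CPM, the counts scaled to a common library size with edgeR's trimmed-mean factors. MDM2 lay between 3324 and 3354 CPM in AG-120/Nutlin against 148 to 194 CPM in AG-120/DMSO, and between 2107 and 3484 CPM in DMSO/Nutlin against 142 to 154 CPM in DMSO/DMSO. Of 6 biliary markers CFTR was under 1 CPM in every library, and the other 5 were each above 15 CPM. The keratin KRT7 had 470.2 to 488 CPM in AG-120/Nutlin against 1583 to 1961 in AG-120/DMSO, and 856 to 1078 in DMSO/Nutlin against 1496 to 1520.1 in DMSO/DMSO. EPCAM was likewise lower with Nutlin, at 15.4 to 17.5 CPM in AG-120/Nutlin against 55.6 to 61.6 in AG-120/DMSO, and 16.03 to 17.9 in DMSO/Nutlin against 47.3 to 48.9 in DMSO/DMSO, while KRT19 was at least 1378 CPM everywhere. In contrast, 5 leukocyte and 3 endothelial markers were each under 1 CPM in every library. Of 6 hepatocyte markers 4 were under 1 CPM in every library, and TTR reached 2.01 CPM in DMSO/Nutlin. HNF4A had 5.59 to 6.02 CPM in AG-120/Nutlin against 15.6 to 27.3 in AG-120/DMSO. In DMSO cells HNF4A had 2.78 to 5.57 CPM with Nutlin against 12.2 to 14.5 without. Of 10 genes of dividing cells 9 were called lower under Nutlin in AG-120 cells (28.8% of all tested genes were) and 9 in DMSO cells (27.1%), with median log2 changes of -5.81 and -5.71. The other, PCNA, was called higher in both (27% and 26.8% of all tested genes were). The part of these markers in the results below was not tested. The summed CPM of 5 fibroblast markers also differed. In AG-120 cells the sum was 2.41 to 3.16 with Nutlin against 38.6 to 43.4 without. In DMSO cells it was 2.82 to 5.29 with Nutlin against 36.0 to 39.6 without. COL1A1 had 17.3 to 19.8 CPM in AG-120/DMSO and 19.8 to 23.2 in DMSO/DMSO. PDGFRB had 20.4 to 25.8 CPM in AG-120/DMSO and 15.7 to 16.9 in DMSO/DMSO. COL1A2 was under 1 CPM in every library, and DCN and LUM were at 0 throughout. Libraries DMSO/Nutlin replicates 2 and 3 and AG-120/DMSO replicate 1 stood apart from the rest of their groups, so counts of calls are also given without them. The labels do not say whether replicates were separate cultures, so the p-values measure only the spread between these libraries, which may be technical.

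The stretch before the start of a gene is shown for some members because many promoters of this class are known to carry the E-box CACGTG, the motif that MYC and related factors bind. Of the 35 members 29 matched a RefSeq promoter on GRCh38.p14, taken as 250 bases before to 50 bases after the start, and 7 of these had 2 promoters. CACGTG reads the same on both strands, so 1 search covers both. It lay in a promoter of 13 of the 29 members (44.83%), against 12.33% of the 10064 tested genes with a promoter. Among other ribosome biogenesis genes, a list described below, it lay in 29 of 106 (27.36%). Counted by promoter, it lay in 36.11% of the 36 member promoters, against 7.26% of all 35116 promoters of that length. For the other ribosome biogenesis genes it lay in 25.41% of 122 promoters. The windows below run from 35 bases before the motif to base 25 of the transcript, or to 35 bases past the motif where that comes first, with the E-box in capitals. Bases are counted from the start of the promoter that holds the motif, and the LYAR window ends before that start. LYAR and GNL3 also have a promoter without the motif (chr4:4290105-4290404 and chr3:52685670-52685969). In each, that other start lies upstream of the window, so the window could be transcribed from there. FBL (chr19:39846355-39846408, minus strand), UTP20 (chr12:101280060-101280129, plus strand), GNL3 (chr3:52686003-52686056, plus strand) and LYAR (chr4:4290045-4290120, minus strand) are members that fell under Nutlin. WDR43 (chr2:28894635-28894691, plus strand) is a member that rose, and RRP9 (chr3:51941880-51941944, minus strand) passed the test in neither direction.
FBL: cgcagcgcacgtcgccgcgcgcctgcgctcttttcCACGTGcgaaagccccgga
UTP20: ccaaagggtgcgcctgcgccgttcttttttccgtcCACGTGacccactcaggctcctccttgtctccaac
GNL3: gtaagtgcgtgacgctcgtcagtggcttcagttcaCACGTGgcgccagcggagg
LYAR: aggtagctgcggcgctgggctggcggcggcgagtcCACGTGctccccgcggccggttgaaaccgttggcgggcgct
WDR43: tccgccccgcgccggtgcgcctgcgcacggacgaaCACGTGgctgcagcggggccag
RRP9: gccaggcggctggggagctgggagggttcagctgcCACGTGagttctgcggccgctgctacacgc
In the windows shown, the motif thus stood close to the start of its own promoter in members of all 3 outcomes. There it lay from base 64 before that start in LYAR to base 7 counted from that start in FBL and GNL3. Among members not shown it lay as far as base 36 in NOP2. A motif that ended past base 25 was not given a window. Only bases from 250 before to 50 after the start were searched, so a site farther off would not be found. Members with the motif fell under Nutlin in 8 of 13 cases in AG-120 cells and in 8 of 13 in DMSO cells, and 1 rose in each. Of the 16 members with a promoter and no motif 13 fell in AG-120 cells and 9 in DMSO cells, and 1 rose in each. Of all tested genes 28.8% fell and 27% rose in AG-120 cells, and 27.1% fell and 26.8% rose in DMSO cells. The shares called among all genes with or without the motif are not given here, so nothing is read about the motif from these counts. A match is a description of the letters and not a measured binding site.

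Most ribosome biogenesis genes were lower after 72 hours of Nutlin, whether the cells had been kept in AG-120 or in DMSO. In AG-120 cells 26 of 35 members (74.3%) fell and 2 rose, where 28.8% of all tested genes fell and 27% rose. In DMSO cells 22 of 35 (62.9%) fell and 2 rose, where 27.1% of all tested genes fell and 26.8% rose. The median log2 fold change over the members was -0.66 in AG-120 cells and -0.51 in DMSO cells, against 0.00 and -0.02 over all tested genes. A change counted as called where the adjusted p was 0.05 or less in edgeR's quasi-likelihood test with Benjamini-Hochberg adjustment over all tested genes. The libraries of both groups did not overlap, with Nutlin lower, for 29 members in AG-120 cells (35.1% of all tested genes) and for 24 in DMSO cells (30.9%). With Nutlin higher they did not overlap for 3 members in each (35.1% of all tested genes in AG-120 cells and 28.3% in DMSO cells). Without the 3 libraries that stood apart 29 members fell in AG-120 cells (34.7% of the genes of that fit) and 29 in DMSO cells (29.3%), where the lone DMSO/Nutlin library was taken to vary as the other groups do. In bulk RNA, fewer cells of a kind and less RNA per cell cannot be told apart. CPM are also relative to the rest of each library, so they do not give amounts per cell.

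**Figure D1:**
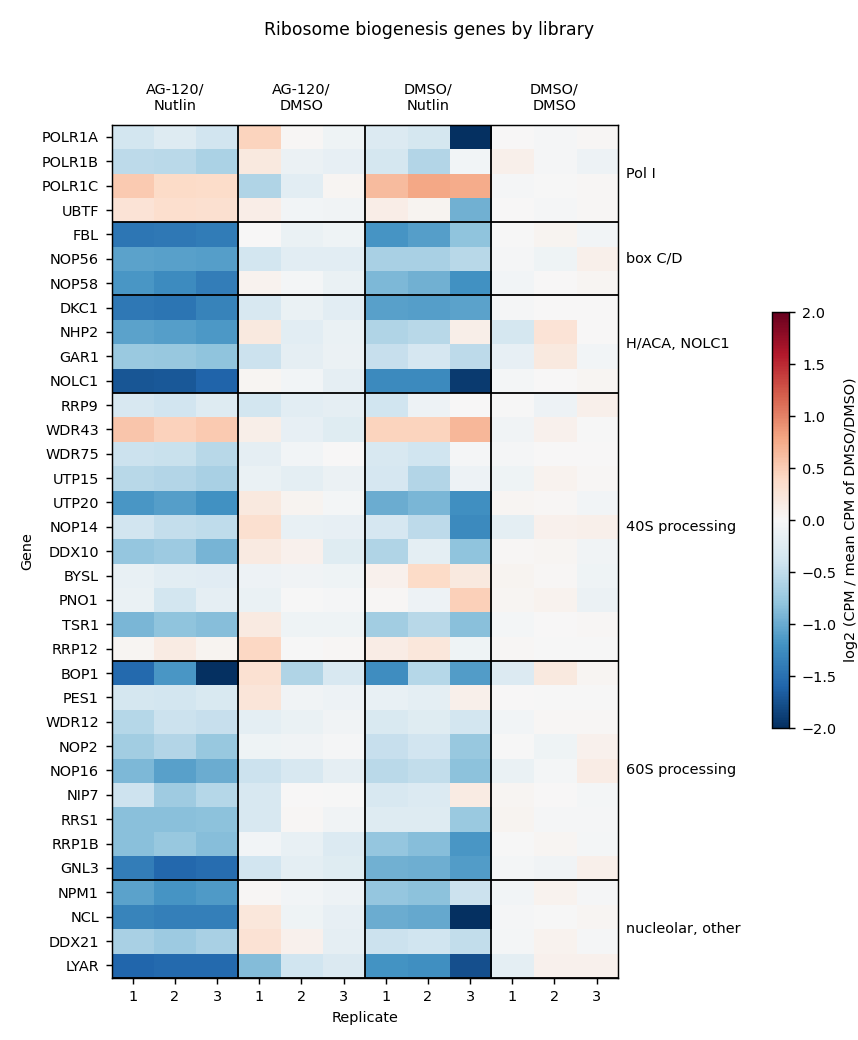
Level of each of the 35 genes in each of the 12 libraries, as log2 of CPM over the mean CPM of the 3 DMSO/DMSO libraries, with colours capped at 2 in either direction, libraries in columns by group and genes in rows by role. Both Nutlin blocks are mostly blue, POLR1C and WDR43 are red in all 6 Nutlin libraries, and DMSO/Nutlin replicate 3 departs from its group for POLR1A, UBTF and NCL.

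Of the 4 RNA polymerase I genes, UBTF included, 1 fell and 1 rose in AG-120 cells, where 28.8% of all tested genes fell and 27% rose. In DMSO cells 1 rose and none fell, where 26.8% of all tested genes rose and 27.1% fell. Nothing is read from these counts over 4 genes, which in AG-120 cells are near the shares of all tested genes. POLR1A, the largest catalytic subunit (hg19 chromosome 2, 86247339 to 86333278), had 98.99, 106 and 98.2 CPM in AG-120/Nutlin, against 174, 129 and 119 in AG-120/DMSO. In DMSO cells it had 105, 99.9 and 32.1 CPM with Nutlin, against 128, 125 and 129 without. The Nutlin libraries were lower without overlap in both, but the spread was wide, and neither log2 change was called (-0.48 ± 0.31 SE in AG-120 cells and -0.69 ± 0.31 in DMSO cells, adjusted p = 0.212 and 0.079, edgeR). Without DMSO/Nutlin replicate 3, the lowest of the 12 libraries, both were called, at -0.49 in AG-120 cells and -0.32 in DMSO cells (edgeR adjusted p = 0.000882 and 0.0316). That library enters the AG-120 comparison only through the estimate of spread, which all 4 groups share. POLR1A was called in 5 of 23 alternatives in AG-120 cells and in 9 of 23 in DMSO cells.

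POLR1B, the other large subunit (hg19 chromosome 2, 113299492 to 113334635), had 37.1, 36.9 and 34.6 CPM in AG-120/Nutlin, against 61.2, 49.5 and 47.5 in AG-120/DMSO. The groups were clear of each other, and POLR1B fell in AG-120 cells (-0.54 ± 0.14, edgeR adjusted p = 0.00453). In DMSO cells the values were 41.7, 35.4 and 51.5 CPM with Nutlin, against 57.4, 52.8 and 49.999 without, and replicate 3 overlapped the controls (-0.32 ± 0.14, edgeR adjusted p = 0.0683). UBTF, which binds rDNA and opens it for the polymerase (hg19 chromosome 17, 42282401 to 42298994), was not called in either: its level was 207, 217 and 215 CPM in AG-120/Nutlin against 189, 167 and 164 in AG-120/DMSO. It was 189, 179.8 and 88.998 CPM in DMSO/Nutlin against 174, 169 and 175 in DMSO/DMSO, where 1 library was low and the others were not. Without that library, DMSO/Nutlin replicate 3, UBTF was called higher in AG-120 cells at 0.29 on the log2 scale (edgeR adjusted p = 0.00117). It was not called in DMSO cells (0.09, edgeR adjusted p = 0.305). The change in AG-120 cells was 0.30 in the full fit, so the call came with the smaller shared spread. UBTF was called in AG-120 cells in 4 of 23 alternatives.

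POLR1C, a subunit shared by RNA polymerases I and III (hg19 chromosome 6, 43477440 to 43497323), was 1 of 2 members that rose. It had 23.99, 21.8 and 21.5 CPM in AG-120/Nutlin, against 10.97, 14.5 and 17.1 in AG-120/DMSO. In DMSO cells it had 25.8, 28.5 and 27.8 CPM with Nutlin, against 16.4, 16.7 and 16.95 without. Every Nutlin library was above every library without Nutlin, with log2 changes of 0.67 ± 0.14 in AG-120 cells and 0.71 ± 0.14 in DMSO cells (edgeR adjusted p = 0.00123 and 0.000737). The gene overlaps YIPF3 and XPO5, which held 745% and 485% of its counts, and how the strand was handled in counting is not given in the sources used here. YIPF3 rose in both comparisons (0.53 in AG-120 cells and 0.77 in DMSO cells) and XPO5 fell in both (-0.69 in AG-120 cells and -0.53 in DMSO cells), so the value of POLR1C is uncertain. In all, 10 members overlap an entry with at least 10% of their own counts, which leaves their values uncertain. They are POLR1C, NHP2, UTP15, NOP14, TSR1, PES1, WDR12, NOP16, NIP7 and GNL3. In both comparisons TCN2 (28.3% of the counts of PES1) and CARF (22.3% of those of WDR12) rose, and ARL10 (20.0% of those of NOP16) fell. HIGD2A (141% of those of NOP16), SGSM2 (60.1% of those of TSR1) and COG8 (37.4% of those of NIP7) were called in neither.

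All 3 box C/D snoRNP proteins, which with guide RNAs carry out 2'-O-methylation of rRNA, fell in both comparisons. FBL, the methyltransferase itself (hg19 chromosome 19, 40325098 to 40337054), had 62.7, 63.4 and 65.1 CPM in AG-120/Nutlin, against 172, 157 and 161 in AG-120/DMSO. Its level in DMSO/Nutlin was 75.4, 79.5 and 97.7 CPM, against 171, 177 and 166 in DMSO/DMSO. No library with Nutlin reached any library without it, and FBL fell by 1.36 ± 0.10 on the log2 scale in AG-120 cells and by 1.02 ± 0.10 in DMSO cells (edgeR adjusted p = 1.34e-07 and 2.08e-06). NOP58 (hg19 chromosome 2, 203130439 to 203168389) and NOP56 (hg19 chromosome 20, 2632791 to 2639039) are the paired scaffold proteins of the particle. NOP58 had 41.2, 38.6 and 35.6 CPM in AG-120/Nutlin against 96.9, 89.8 and 84.3 in AG-120/DMSO, and 49.3, 47.3 and 39.7 CPM in DMSO/Nutlin against 89.3, 92.8 and 94.9 in DMSO/DMSO. The groups lay far apart, and NOP58 fell by 1.23 ± 0.10 in AG-120 cells and 1.02 ± 0.10 in DMSO cells (edgeR adjusted p = 4.45e-07 and 2.74e-06). NOP56 had 79.4, 79.2 and 77.8 CPM in AG-120/Nutlin against 130.3, 145 and 145 in AG-120/DMSO, and 107, 107 and 114 CPM in DMSO/Nutlin against 165, 158 and 179 in DMSO/DMSO. It also fell without overlap, by 0.83 ± 0.08 in AG-120 cells and 0.61 ± 0.08 in DMSO cells (edgeR adjusted p = 2.5e-06 and 3.94e-05).

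The change was not even across the particle. Per kilobase of exon, NOP56 stood at 0.598 ± 0.0181 of the level of FBL in AG-120/Nutlin against 0.415 ± 0.0422 in AG-120/DMSO, and at 0.633 ± 0.0625 in DMSO/Nutlin against 0.474 ± 0.045 in DMSO/DMSO (mean ± SD of the ratio, n = 3 each). The libraries with and without Nutlin did not overlap in that ratio. The ratio of NOP58 to FBL was 0.342 ± 0.0313 in AG-120/Nutlin against 0.313 ± 0.0153 in AG-120/DMSO, and 0.313 ± 0.0733 in DMSO/Nutlin against 0.306 ± 0.0163 in DMSO/DMSO, which overlapped.

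The H/ACA proteins, which with guide RNAs turn uridine of rRNA into pseudouridine, and their chaperone NOLC1 fell in 4 of 4 cases in AG-120 cells and in 3 of 4 in DMSO cells. DKC1, the pseudouridine synthase (hg19 chromosome X, 153991031 to 154005964), had 61.9, 60.9 and 65.98 CPM in AG-120/Nutlin, against 134, 152 and 144 in AG-120/DMSO. In DMSO cells it had 78.8, 78.3 and 79.3 CPM with Nutlin, against 164, 169 and 169 without. The replicates were tight and the groups far apart, with falls of 1.19 ± 0.08 in AG-120 cells and 1.09 ± 0.08 in DMSO cells on the log2 scale (edgeR adjusted p = 5.46e-08 and 1.42e-07). NOLC1 (Nopp140), which escorts snoRNPs to the nucleolus (hg19 chromosome 10, 103911933 to 103923627), showed the lowest log2 change of all 35 members in both comparisons. It had 111, 113 and 121 CPM in AG-120/Nutlin, against 375, 351 and 324 in AG-120/DMSO. DMSO/Nutlin libraries had 150.0, 150.5 and 97.2 CPM, against 355, 366 and 373 in DMSO/DMSO. NOLC1 fell by 1.61 ± 0.14 in AG-120 cells and 1.46 ± 0.14 in DMSO cells, or 3.05-fold and 2.75-fold (edgeR adjusted p = 8.13e-07 and 2.18e-06).

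GAR1 and NHP2, the small proteins of the H/ACA core, moved less or less evenly. GAR1 (hg19 chromosome 4, 110736666 to 110745893) fell by 0.52 ± 0.13 in AG-120 cells and 0.44 ± 0.13 in DMSO cells (edgeR adjusted p = 0.00344 and 0.0104). Per kilobase it stood at 0.421 ± 0.0262 of the level of DKC1 in AG-120/Nutlin against 0.266 ± 0.0192 in AG-120/DMSO, and at 0.423 ± 0.0304 in DMSO/Nutlin against 0.269 ± 0.0318 in DMSO/DMSO, without overlap. NHP2 (hg19 chromosome 5, 177576461 to 177580968) had 24.5, 24.2 and 23.5 CPM in AG-120/Nutlin against 59.05, 44.8 and 47.4 in AG-120/DMSO, and fell (-1.07 ± 0.20, edgeR adjusted p = 0.000508). In DMSO cells it had 34.2, 35.3 and 55.9 CPM with Nutlin against 40.7, 62.5 and 52.2 without, with overlap and no call (-0.31 ± 0.19, edgeR adjusted p = 0.206). Replicate 3 was the high DMSO/Nutlin library, and without it NHP2 was called in DMSO cells as well (-0.58, edgeR adjusted p = 0.0042). NHP2 was called in DMSO cells in 3 of 23 alternatives. NHP2 overlaps RMND5B, and its 2 pseudogene entries held 56.5% of its counts, so its counts may be split. With those entries added, an alternative chosen after the data were seen, the changes were -1.05 in AG-120 cells and -0.34 in DMSO cells.

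**Figure D2:**
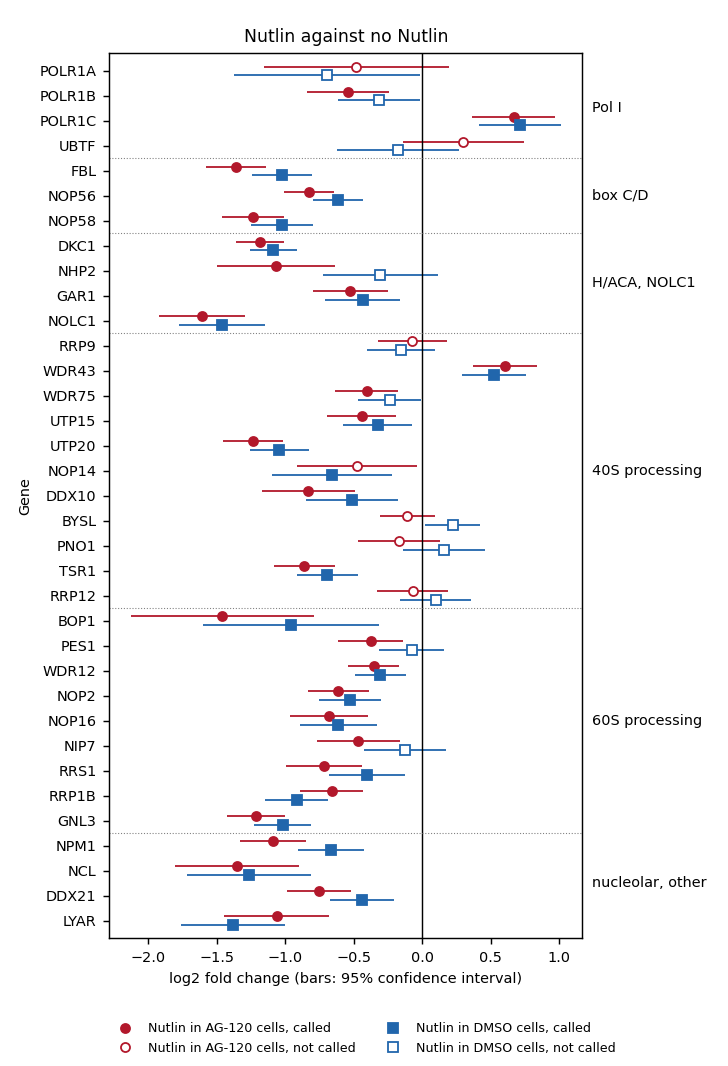
Log2 fold change of each gene with Nutlin against no Nutlin, in AG-120 cells (circles) and in DMSO cells (squares), with 95% confidence intervals from the edgeR model; filled symbols have an adjusted p of 0.05 or less. Most symbols lie left of 0, NOLC1 is lowest in both, and POLR1C and WDR43 lie right of 0 in both.

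The 11 factors of 40S processing were mixed: 5 fell, 1 rose and 5 passed the test in neither direction in AG-120 cells, and likewise 5, 1 and 5 in DMSO cells. UTP20, a large scaffold of the early small-subunit particle (hg19 chromosome 12, 101673887 to 101780394), had 43.2, 44.97 and 41.7 CPM in AG-120/Nutlin, against 111, 101 and 94.5 in AG-120/DMSO. In DMSO cells the values were 48.4, 51.1 and 41.3 CPM with Nutlin, against 99.02, 97.7 and 93.1 without. All Nutlin libraries were the lower ones, and UTP20 fell by 1.23 ± 0.10 in AG-120 cells and 1.04 ± 0.10 in DMSO cells (edgeR adjusted p = 2.97e-07 and 1.61e-06). TSR1, a GTPase-like factor of late 40S maturation (hg19 chromosome 17, 2225797 to 2240801), had 42.1, 45.2 and 43.6 CPM in AG-120/Nutlin against 89.04, 74.2 and 74.5 in AG-120/DMSO, and 48.6, 53.9 and 44.4 CPM in DMSO/Nutlin against 77.3, 79.7 and 80.1 in DMSO/DMSO. It fell as well, by 0.86 ± 0.10 in AG-120 cells and 0.69 ± 0.10 in DMSO cells (edgeR adjusted p = 1.04e-05 and 7.76e-05). The helicase DDX10 fell by 0.83 ± 0.16 in AG-120 cells and 0.51 ± 0.15 in DMSO cells. UTP15, of the complex that joins the precursor as it is transcribed, fell by 0.44 ± 0.12 in AG-120 cells and 0.32 ± 0.12 in DMSO cells (edgeR adjusted p = 0.00587 and 0.0304). Its call in DMSO cells held in 15 of 23 alternatives. UTP15 overlaps ANKRA2, which held 158% of its counts and rose by 2.85 in AG-120 cells and 2.74 in DMSO cells, so the value of UTP15 is uncertain.

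WDR43, a partner of UTP15 in that complex, rose instead (hg19 chromosome 2, 29117509 to 29171088). It had 149.7, 139 and 146 CPM in AG-120/Nutlin, against 110.3, 90.5 and 85.6 in AG-120/DMSO. In DMSO cells the values were 138, 138 and 161 CPM with Nutlin, against 96.2, 108 and 101 without. No Nutlin library was as low as any other, and WDR43 rose by 0.60 ± 0.11 in AG-120 cells and 0.52 ± 0.11 in DMSO cells (edgeR adjusted p = 0.00039 and 0.00124). WDR75, a further protein of the same complex, fell in AG-120 cells (-0.41 ± 0.11, edgeR adjusted p = 0.00543) and was not called in DMSO cells (-0.24 ± 0.10, adjusted p = 0.0722). NOP14, of the early 40S precursor, was the reverse: it fell in DMSO cells (-0.66 ± 0.20, edgeR adjusted p = 0.0149) and was not called in AG-120 cells (-0.48 ± 0.20, adjusted p = 0.0614). Its antisense partner NOP14-AS1 held 34.3% of its counts and rose in both (0.68 in AG-120 cells and 0.64 in DMSO cells), and with the strand setting unknown the counts of the pair cannot be told apart.

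Another 4 small-subunit factors passed the test in neither comparison. RRP12, which helps export the precursor (hg19 chromosome 10, 99116115 to 99161127), had 143, 156 and 145 CPM in AG-120/Nutlin against 186, 139 and 142 in AG-120/DMSO, and 154, 163 and 132 CPM in DMSO/Nutlin against 142, 138 and 139 in DMSO/DMSO. The 95% intervals of its log2 changes ran from -0.33 to 0.19 in AG-120 cells and from -0.16 to 0.36 in DMSO cells, and the groups overlapped. RRP9, a protein of the U3 snoRNP that directs the first cleavages (hg19 chromosome 3, 51967446 to 51975957), had 26.8, 25.6 and 27.8 CPM in AG-120/Nutlin against 25.8, 28.9 and 29.5 in AG-120/DMSO, and 25.2, 31.2 and 33.4 CPM in DMSO/Nutlin against 33.1, 31.1 and 35.7 in DMSO/DMSO. These overlapped too, with intervals from -0.32 to 0.18 in AG-120 cells and from -0.40 to 0.09 in DMSO cells. PNO1, a partner of the nuclease that makes the end of 18S rRNA, had log2 changes of -0.17 ± 0.14 in AG-120 cells and 0.16 ± 0.14 in DMSO cells, neither called. BYSL (bystin), which acts in 40S maturation (hg19 chromosome 6, 41888926 to 41900784), had 42.6, 40.4 and 40.2 CPM in AG-120/Nutlin against 43.8, 44.9 and 44.1 in AG-120/DMSO, all slightly lower (-0.11 ± 0.09, not called). It had 49.6, 60.9 and 53.7 CPM in DMSO/Nutlin against 48.8, 47.9 and 44.02 in DMSO/DMSO, all slightly higher (0.22 ± 0.09, not called, edgeR adjusted p = 0.0593). The difference between both BYSL changes did not pass the test (-0.33 ± 0.13, edgeR adjusted p = 0.379).

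All 9 factors of 60S processing fell in AG-120 cells and 7 of 9 in DMSO cells. GNL3 (nucleostemin), a nucleolar GTPase (hg19 chromosome 3, 52715172 to 52728508), had 27.9, 24.6 and 25.3 CPM in AG-120/Nutlin, against 55.5, 63.5 and 61.4 in AG-120/DMSO. DMSO/Nutlin libraries held 37.3, 36.8 and 33.6 CPM, against 70.7, 69.1 and 78.2 in DMSO/DMSO. The groups did not come near each other, and GNL3 fell by 1.21 ± 0.10 in AG-120 cells and 1.02 ± 0.10 in DMSO cells (edgeR adjusted p = 2.6e-07 and 1.4e-06). It overlaps PBRM1, which held 85.3% of its counts and fell (-0.42 in AG-120 cells and -0.58 in DMSO cells), and GLT8D1, which held 60.4% and rose (0.71 in AG-120 cells and 0.73 in DMSO cells). RRP1B (hg19 chromosome 21, 45079429 to 45115958) had 83.4, 88.2 and 82.7 CPM in AG-120/Nutlin against 144, 135 and 124 in AG-120/DMSO, and 87.3, 82.99 and 66.8 CPM in DMSO/Nutlin against 148, 153 and 146 in DMSO/DMSO. It fell by 0.66 ± 0.10 in AG-120 cells and 0.92 ± 0.11 in DMSO cells (edgeR adjusted p = 0.000138 and 8.81e-06), and its interaction was not called.

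PES1, BOP1 and WDR12 form the PeBoW complex, which is needed for 60S maturation, and they differed in size of change. BOP1, at 2.70 to 17.8 CPM over all libraries, fell by 1.46 ± 0.31 in AG-120 cells and 0.96 ± 0.30 in DMSO cells (edgeR adjusted p = 0.00131 and 0.0156). WDR12 fell by 0.35 ± 0.09 in AG-120 cells and 0.31 ± 0.09 in DMSO cells (edgeR adjusted p = 0.00344 and 0.00878). PES1 (hg19 chromosome 22, 30972612 to 31003070) had 107, 105 and 110.2 CPM in AG-120/Nutlin against 161, 129.9 and 127 in AG-120/DMSO, without overlap, and fell (-0.38 ± 0.11, edgeR adjusted p = 0.0105). Its values in DMSO cells overlapped, at 122, 118 and 146 CPM with Nutlin against 137, 136 and 135 without, and it was not called there (-0.08 ± 0.11, 95% interval -0.31 to 0.16). Per kilobase BOP1 stood at 0.0563 ± 0.0237 of the level of PES1 in AG-120/Nutlin against 0.117 ± 0.0237 in AG-120/DMSO, and at 0.0755 ± 0.0255 in DMSO/Nutlin against 0.136 ± 0.0228 in DMSO/DMSO, without overlap.

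NIP7, which binds pre-60S particles (hg19 chromosome 16, 69373333 to 69377014), followed the pattern of PES1. It had 34.5, 28.2 and 30.9 CPM in AG-120/Nutlin against 37.1, 46.3 and 45.8 in AG-120/DMSO, and fell by 0.47 ± 0.14 (edgeR adjusted p = 0.0122). With 36.8, 38.2 and 51.6 CPM in DMSO/Nutlin against 47.2, 46.2 and 44.9 in DMSO/DMSO it overlapped, since replicate 3 was high, and was not called (-0.13 ± 0.14). NOP2, which methylates 28S rRNA, fell by 0.61 ± 0.10 in AG-120 cells and 0.53 ± 0.10 in DMSO cells. NOP16 fell by 0.68 ± 0.13 in AG-120 cells and 0.61 ± 0.13 in DMSO cells. RRS1, which in yeast brings the 5S particle into the 60S precursor, fell by 0.72 ± 0.13 in AG-120 cells and 0.40 ± 0.13 in DMSO cells. These 3 genes were called in both comparisons, with adjusted p values from 0.000248 to 0.0176 in edgeR.

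The 4 nucleolar proteins with several functions all fell in both comparisons. NPM1 (nucleophosmin), an abundant nucleolar chaperone (hg19 chromosome 5, 170814120 to 170838141), had 361, 337 and 346 CPM in AG-120/Nutlin, against 775, 734 and 709.6 in AG-120/DMSO. In DMSO cells it had 443, 429.9 and 566 CPM with Nutlin, against 733, 800.4 and 748 without. All libraries with Nutlin were below the rest, with falls of 1.09 ± 0.11 in AG-120 cells and 0.66 ± 0.11 in DMSO cells (edgeR adjusted p = 2.86e-06 and 0.000235). The table also holds 45 NPM1 pseudogene entries with 57.5% of its counts between them, and with these added the changes were -1.06 in AG-120 cells and -0.62 in DMSO cells. LYAR, a zinc-finger nucleolar protein (hg19 chromosome 4, 4269428 to 4291896), had 9.83, 10.1 and 10.1 CPM in AG-120/Nutlin against 16.2, 22.4 and 24.1 in AG-120/DMSO, and 12.9, 12.6 and 8.72 CPM in DMSO/Nutlin against 25.97, 31.3 and 31.5 in DMSO/DMSO. It fell by 1.06 ± 0.18 in AG-120 cells and 1.38 ± 0.18 in DMSO cells (edgeR adjusted p = 0.000207 and 2.21e-05).

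NCL (nucleolin), which binds rDNA and the rRNA precursor (hg19 chromosome 2, 232318242 to 232348352), had 384, 371 and 371 CPM in AG-120/Nutlin, against 1115, 899 and 859 in AG-120/DMSO. DMSO/Nutlin libraries had 482, 473 and 240.0 CPM, against 943, 949 and 982 in DMSO/DMSO. Replicate 3 was low beside the other DMSO/Nutlin libraries, but none overlapped the controls, and NCL fell by 1.35 ± 0.21 in AG-120 cells and 1.27 ± 0.21 in DMSO cells (edgeR adjusted p = 0.000113 and 0.000212). Without that replicate the fall in DMSO cells was 1.01. The RNA helicase DDX21 fell by 0.75 ± 0.11 in AG-120 cells and 0.44 ± 0.11 in DMSO cells (edgeR adjusted p = 6.26e-05 and 0.004). POLR1A, UBTF, NHP2 and NCL were chosen for such detail after their values had been seen.

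**Figure D3:**
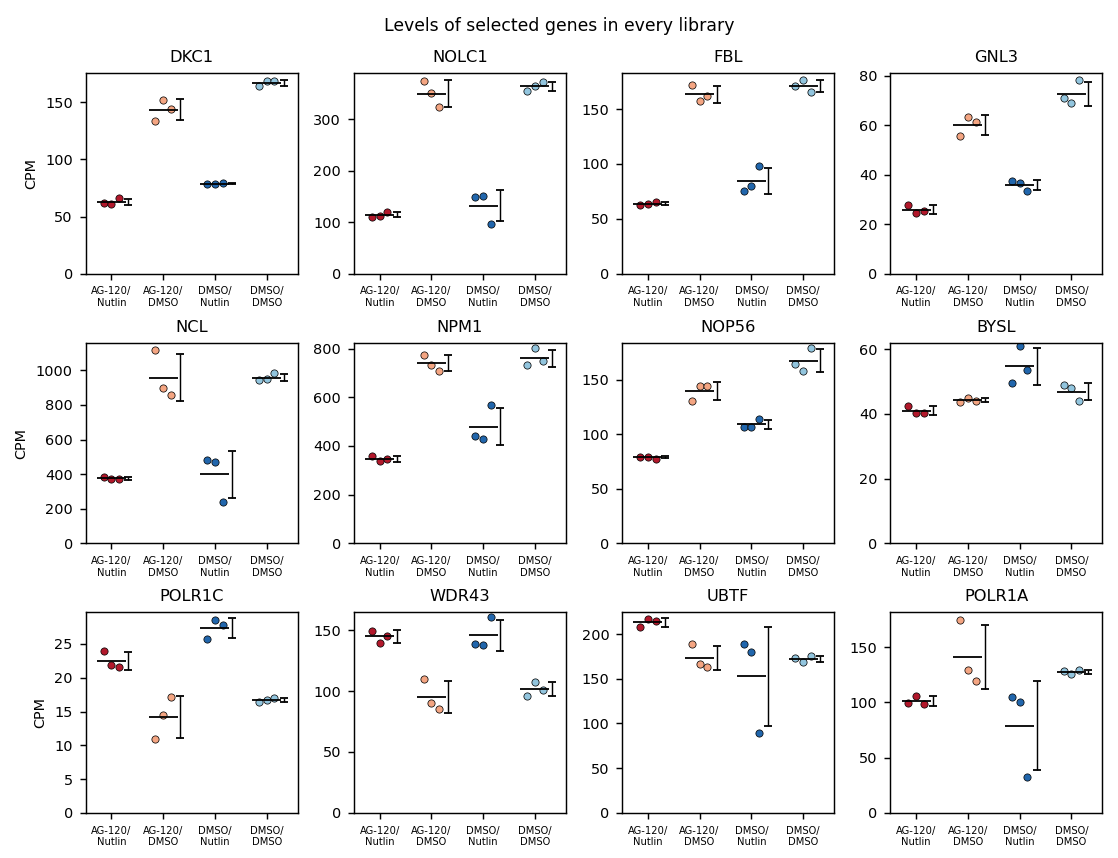
CPM of 12 members in every library, with points for the 3 libraries of each group, a line at their mean and a bar for the SD; each vertical axis starts at 0. DKC1, NOLC1, FBL, GNL3, NCL, NPM1 and NOP56 are lower in all Nutlin libraries, POLR1C and WDR43 are higher, and POLR1A and UBTF have 1 low library in DMSO/Nutlin.

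The members took a smaller share of all counts under Nutlin. They held 0.271%, 0.267% and 0.265% of the counts in AG-120/Nutlin, against 0.499%, 0.471% and 0.463% in AG-120/DMSO. In DMSO cells they held 0.316%, 0.307% and 0.279% with Nutlin, against 0.492%, 0.508% and 0.520% without. NCL, NPM1, DDX21 and NOLC1 together made up 48.0% of the members' counts. The mitochondrial share of counts moved the other way, at 4.11% to 4.42% in AG-120/Nutlin against 1.32% to 1.74% in AG-120/DMSO, and at 1.71% to 3.45% in DMSO/Nutlin against 1.02% to 1.35% in DMSO/DMSO. Whether it takes part in the members' lower share was not tested.

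Levels of different members were compared per kilobase of exon (CPM divided by the GENCODE 29 exon length). NPM1, NCL and FBL were the 3 highest in all 4 groups: NPM1 had 133 ± 4.62 CPM per kilobase in AG-120/Nutlin, 284 ± 12.6 in AG-120/DMSO, 184 ± 28.9 in DMSO/Nutlin and 292 ± 13.7 in DMSO/DMSO (mean ± SD, n = 3 each). NCL came next with 93.02 ± 1.78 CPM per kilobase in AG-120/Nutlin, 237 ± 34.2 in AG-120/DMSO, 98.8 ± 34.04 in DMSO/Nutlin and 237 ± 5.26 in DMSO/DMSO. FBL followed with 54.9 ± 1.07 CPM per kilobase in AG-120/Nutlin, 141 ± 6.52 in AG-120/DMSO, 72.6 ± 10.2 in DMSO/Nutlin and 148 ± 4.83 in DMSO/DMSO. DDX10 was lowest in every group, at 1.85 ± 0.127 CPM per kilobase in AG-120/Nutlin, 3.28 ± 0.495 in AG-120/DMSO, 2.28 ± 0.501 in DMSO/Nutlin and 3.24 ± 0.12 in DMSO/DMSO. NOLC1 was 10th in both Nutlin groups and 4th in both groups without Nutlin. WDR43 moved up, to 5th in AG-120/Nutlin against 15th in AG-120/DMSO, and to 8th in DMSO/Nutlin against 16th in DMSO/DMSO. NPM1 and NCL did not overlap in AG-120/Nutlin, DMSO/Nutlin or DMSO/DMSO, but they did in AG-120/DMSO. NCL and FBL overlapped in DMSO/Nutlin, where replicate 3 was low for NCL.

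AG-120 on its own, without Nutlin, gave no called change among the 35 members. None was called lower (0% of all tested genes) and none higher (0.051%, or 8 genes) by edgeR. DESeq2 also called none (0.181% of the genes with an adjusted p were lower and 0.649% higher). In the edgeR fit 5 of 35 members had an unadjusted p under 0.05, as did 7.99% of all tested genes. The median log2 change over the members was -0.07, with 25 of 35 negative, against 0.00 over all tested genes. LYAR had the lowest value: 16.2, 22.4 and 24.1 CPM in AG-120/DMSO, against 25.97, 31.3 and 31.5 in DMSO/DMSO. The groups did not overlap, but the log2 change of -0.51 ± 0.17 was not called (edgeR adjusted p = 0.444). NOP56 had 130.3, 145 and 145 CPM in AG-120/DMSO against 165, 158 and 179 in DMSO/DMSO, again without overlap and not called (-0.26 ± 0.08, edgeR adjusted p = 0.396). NOP16 (-0.31 ± 0.13), GNL3 (-0.27 ± 0.09) and DKC1 (-0.22 ± 0.08) were the others with an unadjusted p under 0.05, with adjusted p values from 0.468 to 0.561 in edgeR. In all 9 members did not overlap with AG-120 lower (10.3% of all tested genes) and none with AG-120 higher (11.4%). The 95% intervals, which are not adjusted for the number of genes, ran from -0.28 to 0.15 for FBL and from -0.28 to 0.20 for NPM1, and those of NOP56 (-0.44 to -0.08) and DKC1 (-0.40 to -0.05) did not include 0. Without the 3 libraries that stood apart, AG-120/DMSO replicate 1 among them, 5 members were called lower (LYAR, NOP56, DKC1, RRP1B and WDR43) and none higher, where 1.81% of the 16553 genes of that fit were called lower and 3.67% higher.

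Under Nutlin, AG-120 cells held less of some members than DMSO cells. In AG-120/Nutlin against DMSO/Nutlin 4 members were called lower, where 1.93% of all tested genes were, and none higher (0.433% of all tested genes). The median log2 change was -0.24, with 31 of 35 negative, against -0.01 over all tested genes. The libraries did not overlap, with AG-120/Nutlin lower, for 17 members (14.1% of all tested genes), and with AG-120/Nutlin higher for 1, UBTF (14.2%). NOP56 had 79.4, 79.2 and 77.8 CPM in AG-120/Nutlin, against 107, 107 and 114 in DMSO/Nutlin. It was lower in 3 of 3 libraries and fell by 0.47 ± 0.08 (edgeR adjusted p = 0.0133). GNL3, at 27.9, 24.6 and 25.3 CPM in AG-120/Nutlin against 37.3, 36.8 and 33.6 in DMSO/Nutlin, fell by 0.47 ± 0.10 (edgeR adjusted p = 0.0274). NPM1, at 361, 337 and 346 CPM in AG-120/Nutlin against 443, 429.9 and 566 in DMSO/Nutlin, fell by 0.46 ± 0.11 (edgeR adjusted p = 0.0492). BYSL, at 42.6, 40.4 and 40.2 CPM in AG-120/Nutlin against 49.6, 60.9 and 53.7 in DMSO/Nutlin, fell by 0.42 ± 0.09 (edgeR adjusted p = 0.0397). All these groups were clear of each other, and each gene sits on the same side in AG-120/DMSO against DMSO/DMSO, where the log2 changes were -0.26, -0.27, -0.04 and -0.08 and not called.

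These 4 calls depended on single libraries. Leaving out any 1 AG-120/Nutlin library left 0, and leaving out DMSO/DMSO replicate 1 or 2 left 1. Leaving out DMSO/DMSO replicate 3 or AG-120/DMSO replicate 2 or 3 left 2. Over all genes the number called lower also varied, from 56 to 619 with single libraries left out against 303 in the full fit. Without DMSO/Nutlin replicate 3 there were 9 (2.99% of all genes of that fit), and 9 without all 3 libraries that stood apart (4.5%). DESeq2 called 8 (4.2%), and a fit of only both groups compared called 0. NOP56 was called in 19 of 23 alternatives, GNL3 in 16, NPM1 in 11 and BYSL in 9. FBL (-0.40 ± 0.10, edgeR adjusted p = 0.0568), DKC1 (-0.32 ± 0.08, adjusted p = 0.0559) and NHP2 (-0.80 ± 0.20, adjusted p = 0.0568) lay just past the threshold. NCL (-0.09 ± 0.21) and WDR43 (-0.01 ± 0.11) were not called.

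**Figure D4:**
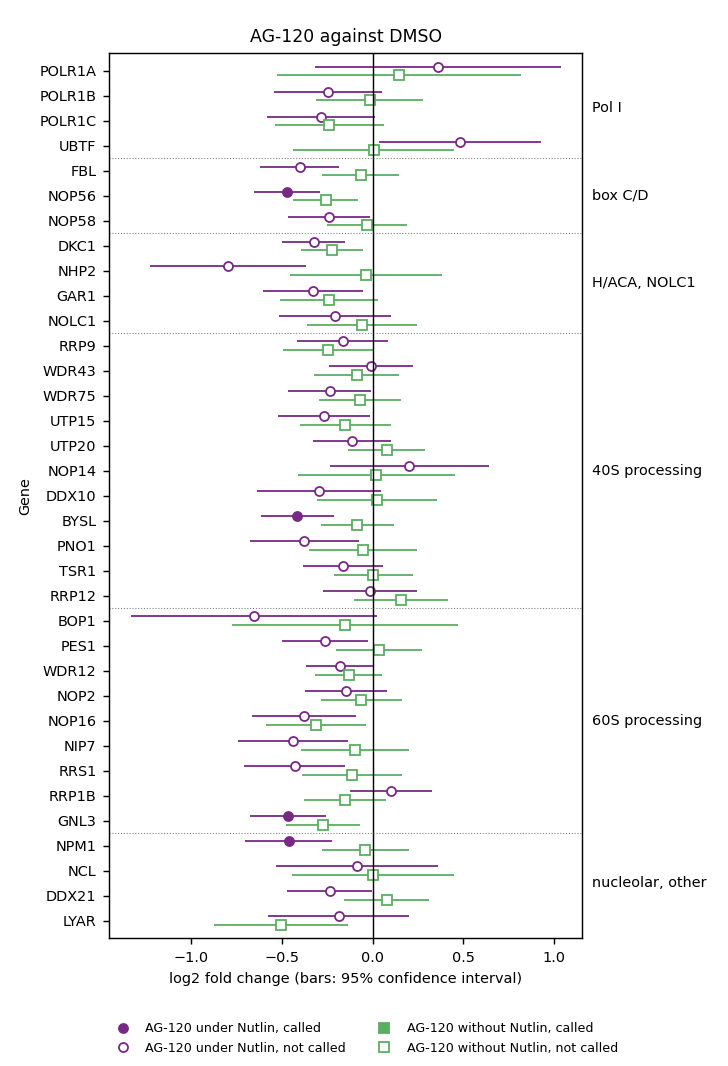
Log2 fold change of each gene with AG-120 against DMSO, under Nutlin (circles) and without Nutlin (squares), with 95% confidence intervals from the edgeR model; filled symbols have an adjusted p of 0.05 or less. NOP56, BYSL, GNL3 and NPM1 are the filled circles, and no square is filled.

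Whether the Nutlin response itself differed between AG-120 and DMSO cells was tested by the interaction term. No member was called by edgeR (0.331% of all tested genes were called with the AG-120 response lower and 0.0319% higher) and none by DESeq2 (1.25% lower and 0.176% higher among genes with an adjusted p). An unadjusted p under 0.05 was held by 4 members, a share close to the 11% of all tested genes, so nothing is read from that count. The Nutlin response was the lower one in AG-120 cells for 28 of 35 members, with a median difference of -0.17 on the log2 scale against -0.01 over all tested genes. The 4 with an unadjusted p under 0.05 were NHP2 (-0.76 ± 0.28, edgeR adjusted p = 0.334), NPM1 (-0.42 ± 0.16), FBL (-0.34 ± 0.14) and BYSL (-0.33 ± 0.13). Their 95% intervals reached from -1.36 to -0.16, -0.76 to -0.08, -0.64 to -0.03 and -0.62 to -0.05, so a missing call does not show equal responses. The comparisons of Nutlin with no Nutlin share no libraries, and their log2 changes over the 35 members had a Pearson r of 0.898, as a description of points that come from the same 12 libraries. Both had the same sign in 31 members, 21 members fell in both and 2 rose in both. Another 5 (POLR1B, NHP2, WDR75, PES1 and NIP7) passed the test in AG-120 cells alone and 1 (NOP14) in DMSO cells alone. None of these 6 had a called interaction. The shares of all tested genes called in both comparisons or in 1 alone are not given here. Nothing is therefore read from these counts of calls.

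How far a library lay from its group ran with transcript length to a varying degree. In AG-120/DMSO replicate 1 the members' deviation from the other libraries of the group ran with exon length (Spearman 0.467 over 35 genes), and in AG-120/DMSO replicates 2 and 3 against it (-0.294 and -0.541). In DMSO/Nutlin replicates 1, 2 and 3 the values were 0.408, 0.233 and -0.323. They ran from -0.368 to 0.448 in AG-120/Nutlin and from -0.190 to 0.261 in DMSO/DMSO. By construction the deviations of a gene within a group cancel out, so opposite signs within a group are not separate observations. DMSO/Nutlin replicate 3 held POLR1A, the longest member, at -1.66 and NHP2, the shortest, at 0.68 on the log2 scale from its group. The median absolute deviation over the members was 0.33 on the log2 scale in that library, against 0.05 to 0.06 in the 3 DMSO/DMSO libraries. RNAs without a poly(A) tail were highest in DMSO/Nutlin replicate 2, with RMRP at 77.5, RPPH1 at 174 and RN7SK at 163 CPM, against at most 23.6, 43.0 and 68.0 CPM in the other libraries. The genes without a call in DMSO cells that had 1 wide library there (POLR1A, UBTF, NHP2, NIP7) are among those that this spread touches, and its cause was not tested. With a length trend removed from every library, an alternative chosen after the data were seen, 27 members fell in AG-120 cells (30.2% of the genes of that fit) and 22 in DMSO cells (27.9%).

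**Figure D5:**
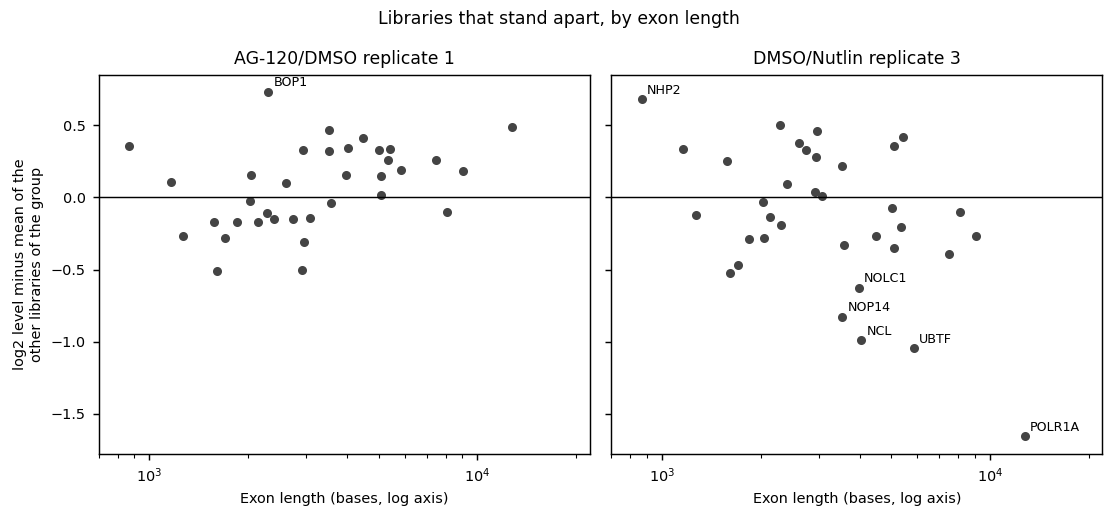
Deviation of each member in AG-120/DMSO replicate 1 (left) and DMSO/Nutlin replicate 3 (right) from the mean of the other libraries of its group (log2 level, vertical) against exon length in bases (log axis); each point is 1 of the 35 genes. Longer genes tend to lie above 0 on the left and, with POLR1A at -1.66, below 0 on the right.

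Other ribosome biogenesis genes, a list of 134 of which 133 passed the filter, also held more genes that fell than rose. This list too was made with earlier results of these data known. In AG-120 cells 60 of 133 fell (45.1%) and 15 rose (11.3%), with a median log2 change of -0.30, where 28.8% of all tested genes fell and 27% rose. In DMSO cells 57 fell (42.9%) and 19 rose (14.3%), with a median of -0.29, where 27.1% of all tested genes fell and 26.8% rose. Among subunits of RNA polymerase I, CD3EAP fell by 1.33 ± 0.19 in AG-120 cells and 1.10 ± 0.18 in DMSO cells, and POLR1E, its partner, by 1.13 ± 0.13 in AG-120 cells and 0.56 ± 0.13 in DMSO cells. ZNRD1, a small subunit, rose by 0.93 ± 0.18 in AG-120 cells and 0.95 ± 0.17 in DMSO cells. The snoRNP assembly factors RUVBL2 (-1.31 in AG-120 cells and -0.92 in DMSO cells) and PIH1D1 (-1.01 in AG-120 cells and -0.59 in DMSO cells) fell. In 40S processing NAT10, which acetylates 18S rRNA (-0.95 in AG-120 cells and -0.77 in DMSO cells), and HEATR1 (-0.93 in AG-120 cells and -0.72 in DMSO cells) fell, and UTP3 rose (0.83 in AG-120 cells and 0.60 in DMSO cells). In 60S processing EBNA1BP2 (-1.19 in AG-120 cells and -1.05 in DMSO cells) and MRTO4 (-1.04 in AG-120 cells and -0.69 in DMSO cells) fell, while GLTSCR2 (0.44 in AG-120 cells and 0.72 in DMSO cells) and the helicases DDX24 (0.67 in AG-120 cells and 0.56 in DMSO cells) and DDX31 (0.56 in AG-120 cells and 0.48 in DMSO cells) rose. The RNA exosome, which trims rRNA precursors, was split: EXOSC8 (-1.41 in AG-120 cells and -1.50 in DMSO cells), EXOSC9 (-1.11 in AG-120 cells and -1.37 in DMSO cells) and EXOSC2 (-1.23 in AG-120 cells and -1.40 in DMSO cells) fell and EXOSC4 rose (0.53 in AG-120 cells and 0.81 in DMSO cells). All these values are log2 changes of Nutlin over no Nutlin, each with an edgeR adjusted p of at most 0.0136. Of the same list 3 (MRTO4, RPF2 and WDR3) fell with AG-120 under Nutlin, a share of 2.26% that is near the 1.93% of all tested genes, and none was called with AG-120 alone or in the interaction.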

How the data were processed

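Poly(A) RNA of 12 RBE libraries was sequenced as paired reads, per the labels' protocols. The authors deposited raw counts per gene with hg19 positions. The submitters' processing notes name Partek, STAR, HTSeq, DESeq2 and hg19; versions, the annotation and the strand setting are not given in the sources used here. Groups came from the sample labels.

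From the counts, filterByExpr kept 15691 genes. TMM scaling, 1 glmQLFit over all 12 libraries and glmQLFTest (edgeR 4.0.16, limma 3.58.1, R 4.3.3) gave each comparison, with Benjamini-Hochberg adjustment over all tested genes and a threshold of 0.05. Scripts were tested on simulated data. CPM per kilobase used GENCODE exon lengths, matched for 86.1% of tested genes. Depth limits the precision of low genes such as BOP1. Members and lists were chosen with earlier results of these data known. Named with all values were the 2 members per role with the smallest adjusted p, those called against the common direction or in an AG-120 comparison, and the 3 nearest to no change per Nutlin comparison; exceptions are stated. Other biogenesis genes were named by role in the same way. Alternatives were DESeq2 1.42.0, other scalings and filters, voom, fits restricted to both groups of a comparison, a replicate block, and fits that left libraries out. Of the symbols in the table, 28 had become dates and were not used.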

Additional observations from a re-analysis of the deposited data

How the results depend on the processing

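Under the 23 alternatives the number of members that fell with Nutlin stayed between 26 and 29 in AG-120 cells and between 19 and 29 in DMSO cells, apart from 25 to 28 and 19 to 27 when single libraries were left out. The counts for AG-120 were less steady, and the cause was not tested. Under Nutlin, 4 members were called lower; this count was 8 with DESeq2, 7 with no filter on low counts, 10 with voom and sample weights, 9 without the 3 libraries that stood apart, 0 with both groups alone, and 0 to 9 when single libraries were left out. With no filter, 1 member (UBTF) was called higher there. Without Nutlin, 0 members were called, against 2 with voom and 5 without the 3 libraries. The interaction, with 0 calls, had 1 with no filter, 1 with voom and 1 without the 3 libraries. No pairing by replicate number was seen, as same-numbered libraries had correlations from -0.239 to 0.171. Differently numbered libraries were not compared in this way, so pairing is not excluded. With a replicate block 1 member was called lower with AG-120 under Nutlin. Over all genes, 303 were called lower with AG-120 under Nutlin, against 621 with DESeq2, 678 with no filter, 178 with the replicate block, 15 with both groups alone, 603 with voom and 745 without the 3 libraries. The 68 called higher became 256, 594, 33, 0, 376 and 629 in the same order. AG-120 alone gave 0 lower and 8 higher, against 24 and 86 with DESeq2, 318 and 601 with voom. For the interaction 52 were lower and 5 higher, against 185 and 26 with DESeq2, 358 and 75 with voom. With single libraries left out the interaction gave 22 to 207 genes lower and 1 to 36 higher. The interaction calls over all genes with no filter are not given here, so nothing is read from the 1 member called there. Of the other biogenesis genes 3 fell with AG-120 under Nutlin, against 13 with DESeq2, 10 with voom and 0 with both groups alone, and the 19 that rose with Nutlin in DMSO cells were 12 when scaled by library totals. That scaling moved the median of all genes in DMSO cells to -0.10 on the log2 scale, against -0.02. Adding pseudogene entries, removing the length trend and leaving out the 3 libraries were alternatives that followed the data or earlier results of them. BOP1, with the fewest counts, had the widest intervals of the 60S factors.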
